A study of Mus musculus with 3 samples.

Results

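The histone genes of the Hist clusters were taken as all gene rows whose symbol starts with Hist1h, Hist2h, Hist3h or Hist4h. That gave 67 of the 32285 genes in the files. They comprise 6 genes of linker histone H1, 18 of H2A, 18 of H2B, 12 of H3 and 13 of H4. Of these, 54 lie on chromosome 13, 10 on chromosome 3, 2 on chromosome 11 and 1 on chromosome 6. In the kept cells 62 of them had at least 50 UMIs (unique molecular identifiers, each counting 1 captured RNA molecule), 3 had 1 to 49 and 2 had none.

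Mouse splenocytes depleted of T cells with CD3 microbeads were measured by 10x Genomics 5′ single-cell RNA sequencing in 3 libraries, each holding 2 conditions of 3 pooled mice at 12 to 14 weeks of age. The C57BL/6 control library held male mice with a sham pump and female mice. The C57BL/6 Ang II library held male mice given angiotensin II for 2 weeks from 10 weeks of age by minipump (490 ug/kg/min as the label gives it), without and with 2-HOBA (2-hydroxybenzylamine). The B6.SLE123 library held the lupus-prone strain B6.SLE123, without and with 2-HOBA for 6 weeks from 7 weeks of age. The paper gives these mice as female. No library was repeated, so strain, treatment and sex cannot be told apart from library. The 6 hashtags of a library, C0301 to C0306, were not named for a condition, so the conditions within a library were not compared. No source says that a hashtag stands for 1 animal.

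After the filters 15700 control, 14023 Ang II and 16708 B6.SLE123 cells remained, with medians of 1759, 2724 and 1888 UMIs per cell. Libraries shared 415 to 496 cell barcodes pairwise. Barcodes with 3500 or more genes were removed under the study's upper limit, 53, 176 and 256 of them, and 37, 120 and 240 of these held a UMI of Mki67, the gene of the proliferation antigen Ki-67. Cells were gated by markers, a class needing at least 3 detected markers, and B cell-gated cells numbered 13427, 11732 and 13177.

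Histones are the proteins around which DNA is wound: H2A, H2B, H3 and H4 form the core of the nucleosome, and H1 binds the linker DNA between cores. A dividing cell must make histones while it copies its DNA, and the clustered genes supply most of that protein. Their mRNAs usually end at a stem-loop bound by the protein SLBP and carry no poly(A) tail, whereas some members can also be made as polyadenylated mRNA, the form that oligo-dT priming captures. A count therefore does not give the total histone mRNA of a cell.

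The stem-loop was searched for in the GENCODE vM21 transcripts on GRCm38, the annotation of the build that the submitters' processing notes name (mm10). It was found in 46 of the 67 members and in 86 of all 55450 genes. The members fell into 8 distinct 16-base forms, the commonest in 26 members. In 23 members the longest model ended under 100 bases past the loop and in 23 it ran on further. Of the 21 with no loop, 17 had a short model and 4 had a model over 1000 bases long (Hist1h2bc, Hist2h2be, Hist1h2bq and Hist1h2br). These lines show the loop, in capitals and as DNA, of members on which the results below turn.
Hist1h2ap (H2A): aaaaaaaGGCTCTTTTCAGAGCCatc
Hist1h2ae (H2A): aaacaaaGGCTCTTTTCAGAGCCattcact
Hist1h1e (H1): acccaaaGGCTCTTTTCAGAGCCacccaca
Hist3h2ba (H2B): acccaaaGGCTCTTTTCAGAGCCaccttcc
Hist2h2aa1 (H2A): ctaaaaaGGCTCTTTTCAGAGCCacccact
Hist1h3g (H3): ctttaaaGGCTCTTCTTAGAGCCacccatc
Hist1h4m (H4): aactaaaGGCCCTTTTCAGGGCCatc
Hist1h4n (H4): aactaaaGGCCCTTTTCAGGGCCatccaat
Past the loop the model ran on for 3 bases in Hist1h2ap, 151 in Hist1h2ae and 1153 in Hist1h1e. In Hist1h3g the loop differed from the commonest form and occurred in no other member, as was so for the forms of Hist2h2ac and Hist1h4a.

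Promoter windows of 300 bases (RefSeq, GRCm38.p6) were matched for 62 members. The letters CCAAT, searched on both strands, were in 53 of them (85.5%), against 37.4% of all 32851 windows. All 6 H1, 18 H2A, 16 H2B and 10 H3 windows held CCAAT, as did 3 of 12 H4 windows. TATAAA was in 35 windows (56.5%, against 13.6% of all). The octamer ATTTGCAT was in 13 (21.0%, against 1.74% of all), of which 7 were H2A and 6 H2B. A match is a description of the letters, not a bound site. The 4 windows printed belong to a member that was high in dividing cells (Hist1h2ae), one that was not called there (Hist3h2ba), and the near-identical H4 pair whose levels differed most between libraries. Capitals mark the 3 motifs on either strand.
Hist1h2ae, chr13:23571171-23571470, minus strand: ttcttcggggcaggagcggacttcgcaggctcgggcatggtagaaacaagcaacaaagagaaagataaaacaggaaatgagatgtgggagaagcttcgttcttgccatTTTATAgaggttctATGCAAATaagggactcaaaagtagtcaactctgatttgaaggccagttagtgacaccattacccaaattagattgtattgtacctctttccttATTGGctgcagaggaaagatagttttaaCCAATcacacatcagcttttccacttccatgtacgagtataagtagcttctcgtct
Hist3h2ba, chr11:58948661-58948960, plus strand: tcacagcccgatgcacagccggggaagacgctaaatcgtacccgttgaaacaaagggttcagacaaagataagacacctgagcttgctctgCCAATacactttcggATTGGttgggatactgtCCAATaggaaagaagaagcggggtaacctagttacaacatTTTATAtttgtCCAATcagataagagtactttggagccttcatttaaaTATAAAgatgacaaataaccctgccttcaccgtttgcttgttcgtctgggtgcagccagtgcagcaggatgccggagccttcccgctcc
Hist1h4m, chr13:21811496-21811795, plus strand: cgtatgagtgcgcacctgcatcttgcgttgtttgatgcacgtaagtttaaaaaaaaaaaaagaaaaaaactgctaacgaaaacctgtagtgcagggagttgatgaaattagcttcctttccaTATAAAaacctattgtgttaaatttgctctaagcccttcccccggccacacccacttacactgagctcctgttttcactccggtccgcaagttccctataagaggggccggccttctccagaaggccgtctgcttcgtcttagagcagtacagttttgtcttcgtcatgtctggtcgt
Hist1h4n, chr13:21832148-21832447, minus strand: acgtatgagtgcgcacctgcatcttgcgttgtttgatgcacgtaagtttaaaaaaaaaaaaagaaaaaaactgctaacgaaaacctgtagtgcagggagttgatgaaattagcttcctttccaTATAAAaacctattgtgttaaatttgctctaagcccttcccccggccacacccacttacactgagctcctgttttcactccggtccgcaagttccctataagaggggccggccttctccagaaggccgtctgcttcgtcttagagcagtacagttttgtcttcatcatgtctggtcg
Over the 299 bases that the last pair can be compared on, 298 were the same, and the 312 coding bases of the pair did not differ.

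Such likeness limits single members. In 30 members at least 50% of the 50-base words of the transcripts also occurred in another member, and 7 members shared no such word. Words were compared among the 67 members only, not with other genes. Hist1h2ap and Hist1h2ao shared 93.1% and 93.5% of theirs, mostly with each other. Cell Ranger counts a read only where it maps to 1 gene, so a member's count rests on the bases that tell it from its copies. In addition 7 members overlap a gene on the same strand, among them Hist1h1e with Hist1h2be, Hist2h2aa1 with Gm20634 and Hist3h2a with Trim17. On the other strand 21 members overlap a gene.

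The summed level of the members over all kept cells was 947 CPM (UMIs scaled to a common total of gene UMIs) in the control library, 1171 in Ang II and 1520 in B6.SLE123. They held 150834 UMIs in all, 68.4% of them in the 12 highest members. A UMI count is not scaled by transcript length, but members are not counted with equal efficiency, since shared sequence and the form of the mRNA both bear on what is counted, so the order below is that of counted UMIs only. The highest by the mean of the 3 libraries was Hist1h1e, a linker histone H1, at 125 CPM in the control library, 151 in Ang II and 175 in B6.SLE123, the order of libraries kept from here on. Next came the H2A genes Hist1h2ap, at 87.5, 190 and 125 CPM, and Hist1h2ae, at 91.0, 76.7 and 214 CPM. Hist1h1e led in the control, Hist1h2ap in the Ang II and Hist1h2ae in the B6.SLE123 library. The H2B gene Hist1h2bc was nearly level between the libraries, at 81.6, 71.5 and 71.9 CPM. The linker genes Hist1h1c (63.2, 80.3 and 66.6 CPM), Hist1h1b (35.2, 34.5 and 133 CPM) and Hist1h1d (31.6, 46.2 and 56.5 CPM) followed. Hist1h4d, Hist1h3e, Hist1h2ao, Hist1h4i and Hist1h2ab complete the 12, each between 13.8 and 47.8 CPM in every library.

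Few cells held much of this RNA. The 1% of B cell-gated cells with the most histone UMIs held 22.6% of them in the control, 10.5% in the Ang II and 38.8% in the B6.SLE123 library. Cells with at least 50 histone UMIs numbered 35, 14 and 170, and 34, 12 and 168 of those carried a Mki67 UMI. The most in 1 cell was 256, 274 and 292 UMIs, whereas 4443, 2089 and 3820 cells had none. These counts move with the upper limit on genes: without it 46, 40 and 223 cells had at least 50, and the top 1% held 27.6%, 27.8% and 42.9%.

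In B cell-gated cells with at least 1 Mki67 UMI the members were higher than in those with none. There were 149 such cells in the control, 154 in the Ang II and 755 in the B6.SLE123 library, and the summed histone level was 5392, 2440 and 5213 CPM, against 674, 849 and 674 CPM in the Mki67-negative cells. The 3 positive values lie above all 3 negative ones. The low positive value of the Ang II library was seen only under the upper limit on genes per cell. Without that limit, an alternative chosen after the data were seen, the 3 positive values were 5351, 5667 and 5637 CPM (164, 195 and 837 cells). The negative ones were then 673, 847 and 673 CPM. The 41 Ang II cells that the limit removed stood at 8673 CPM. Values of single members in the Mki67-positive Ang II cells below are those under the limit. These cells held 19.6%, 6.91% and 54.2% of the B cell-gated histone UMIs. Their medians were 4856, 5462.5 and 4932 UMIs per cell, against 1760, 2729.5 and 1862 in the negative cells.

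Gene by gene, the UMIs of each side were summed per library and tested within libraries by edgeR's quasi-likelihood test over 11917 genes, of which 14.0% were called higher at an adjusted p under 0.05. Of the 59 members tested, 44 were higher and 0 were lower at that threshold. By DESeq2 44 were also higher, beside 2652 of 11917 genes called in either direction. At an unadjusted p under 0.05 edgeR gave 46 members. The members' median log2 fold change was 2.36, beside −0.07 for all genes tested. Of the 59 members 45 were higher in all 3 libraries, a share that was not counted over all genes. With both sides limited to the middle range of the positive cells' depths, 43 of 54 members were higher, beside 2058 of 10616 genes called in either direction. The positive side stayed the deeper there, at medians of 4856, 5462.5 and 4932 UMIs against 3564, 3592 and 3702.5.

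By family, all 5 H1 and all 10 H3 genes tested were higher. Among the H2A genes 13 of 17 were higher, among the H2B genes 10 of 15 and among the H4 genes 6 of 12. The H2A genes had the highest family median, 3.48 on the log2 scale, and the H4 genes the lowest, 1.52. In CPM, H2A went from 170 to 2880 in the control, from 254 to 1290 in the Ang II and from 163 to 2490 in the B6.SLE123 library, so that H2A was the most abundant family on the positive side in every library. On the negative side of the control and B6.SLE123 libraries H1 was the highest, at 194 and 205 CPM.

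**Figure D1:**
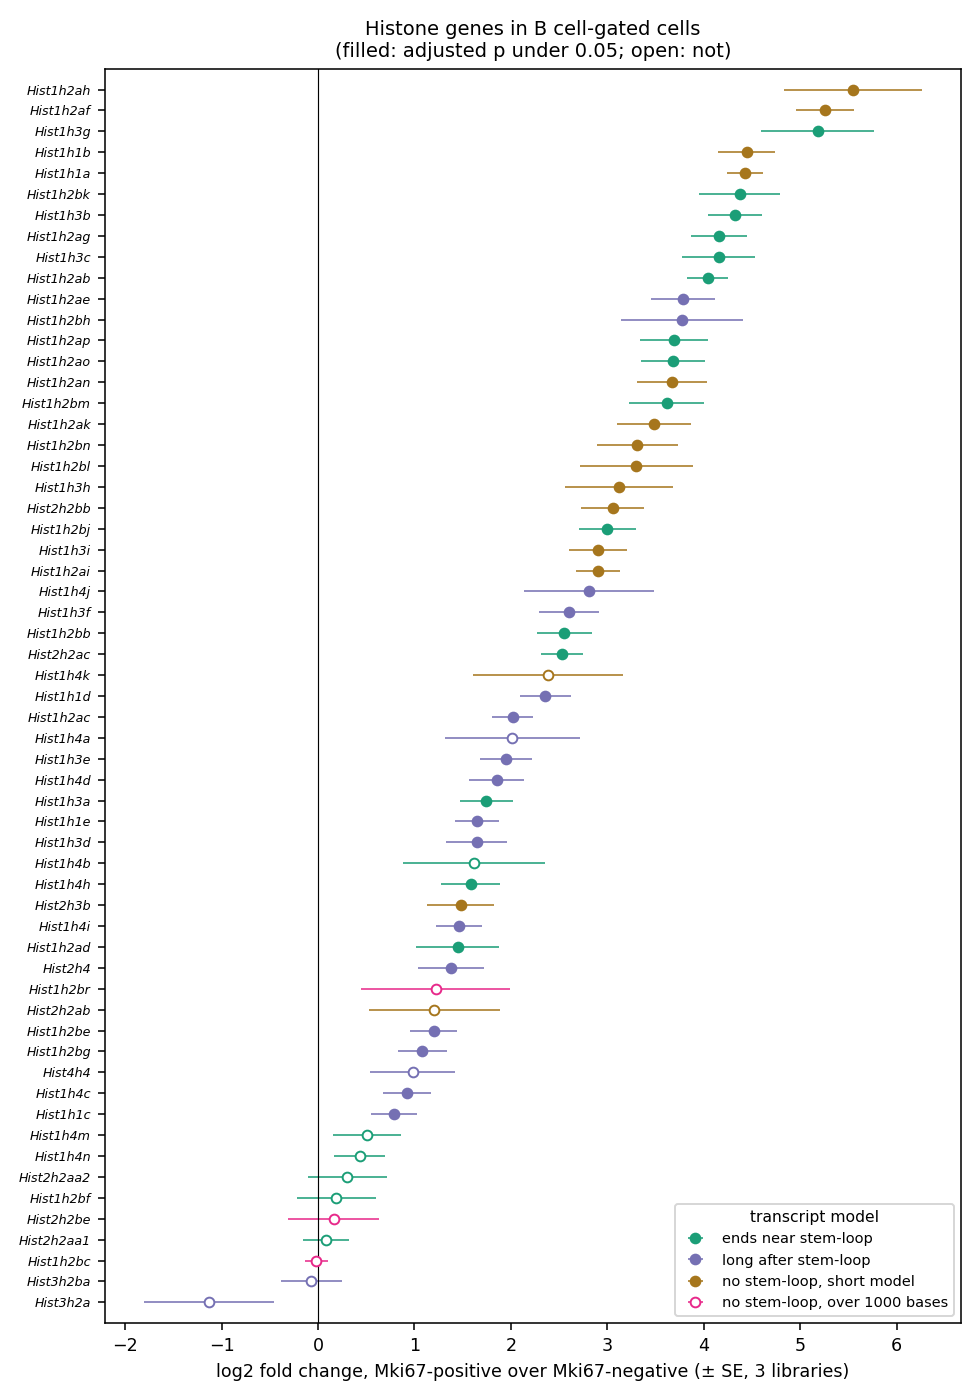
Log2 fold change of each of the 59 histone genes tested, Mki67-positive over Mki67-negative B cell-gated cells (x axis), with its standard error from the edgeR fit of 3 libraries. Colours give the transcript model, and filled points passed an adjusted p of 0.05. The 44 filled points lie right of 0, and of the 3 members without a stem-loop whose model is over 1000 bases long none is filled.

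The largest rise was that of Hist1h2ah, an H2A gene, at 18.0 against 0.0366 CPM in the control, 5.42 against 0.448 in the Ang II and 21.0 against 0.397 in the B6.SLE123 library. Only 1 UMI lay on the negative side of the control library, so its log2 fold change of 5.55 (SE 0.718, adjusted p 0.000828, edgeR) is loosely set. Hist1h2af, another H2A gene, stood at 90.0 against 1.14, 51.0 against 1.23 and 89.1 against 3.65 CPM, in the same order, a log2 fold change of 5.26 (SE 0.302, adjusted p 7.63e-06). The H3 gene Hist1h3g had a log2 fold change of 5.18 from 10.8 against 0.147, 8.68 against 0.112 and 13.4 against 0.686 CPM. None of the 3 genes overlapped between the sides, but they were chosen for the size of this same rise, so that is no separate result.

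Among the linker genes, Hist1h1b (H1.5) was at 468, 163 and 632 CPM with Mki67 and at 12.3, 14.1 and 26.0 CPM without. Its log2 fold change was 4.44 (SE 0.294, adjusted p 1.52e-05, edgeR), and it shares no 50-base word with another member. Hist1h1a (H1.1), which shares none either, rose by 4.43 on that scale, from 2.53, 3.17 and 6.24 to 81.6, 57.5 and 123 CPM. The other linker genes tested rose less. Hist1h1e (H1.4) went from 99.3, 122 and 101 CPM to 397, 220 and 450 CPM, a log2 fold change of 1.65 (adjusted p 0.00112), and Hist1h1d (H1.3) by 2.36. Hist1h1c (H1.2) stood at 133, 64.0 and 109 CPM with Mki67 and at 56.2, 71.3 and 47.0 CPM without, so the Ang II library went the other way under the limit on genes, and not without it, at 109 against 71.1 CPM. Its log2 fold change was 0.79 (adjusted p 0.0424), a call that was lost without the control library (0.57) or without B6.SLE123 (0.58). The linker genes thus ranged from 0.79 to 4.44 on one scale.

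The abundant H2A genes moved together. Hist1h2ae was at 1030, 270 and 1030 CPM with Mki67 and at 43.9, 44.0 and 55.4 CPM without (log2 fold change 3.78, SE 0.335, adjusted p 9.35e-05). Hist1h2ap was at 868, 559 and 551 CPM against 46.0, 101 and 25.8 CPM (3.69, adjusted p 0.000143). Its near copy Hist1h2ao gave 3.68, Hist1h2ag 4.16 and Hist1h2ab 4.04. For the H3 genes Hist1h3b and Hist1h3c the values were 4.32 and 4.16, and for the H2B gene Hist1h2bk 4.37. The H4 genes Hist1h4d (1.85) and Hist1h4i (1.46) and the H3 gene Hist1h3e (1.95) rose less, each past the threshold.

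The 15 members that were tested and not called included Hist1h2bc, the one of the 12 highest members that was not. Hist1h2bc stood at 72.0, 66.2 and 67.0 CPM with Mki67 and at 71.2, 62.9 and 68.1 CPM without. The 2 sides were close in every library, and the log2 fold change was −0.02 (SE 0.118, adjusted p 0.936). Hist2h2aa1 (0.09), Hist2h2be (0.16), Hist1h2bf (0.19) and Hist3h2ba (−0.07) were near 0 as well. Hist3h2ba was at 12.0, 5.42 and 6.37 CPM with Mki67 and at 11.7, 10.7 and 4.80 CPM without. Hist3h2a, next to it on chromosome 11, was the one member with at least 50 UMIs that was no higher with Mki67 in all 3 libraries: 1.20, 0 and 1.41 CPM against 3.85, 2.86 and 1.77 CPM. That rests on 1, 0 and 6 UMIs, and the log2 fold change of −1.14 had an adjusted p of 0.251. The H4 pair Hist1h4m (0.51) and Hist1h4n (0.43) was not called either.

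By chromosome, 40 of 48 members tested on chromosome 13 were higher, 4 of 8 on chromosome 3, 0 of 2 on chromosome 11 and 0 of 1 on chromosome 6. By transcript model, 15 of 21 members that end near the stem-loop were higher (median 2.56), 16 of 20 that run on past it (1.65), 13 of 15 with a short model and no loop (3.30), and 0 of the 3 with a model over 1000 bases and no loop (Hist1h2bc, Hist2h2be and Hist1h2br, median 0.16). These counts are descriptions of the annotation. Reads from the 5′ end do not show where a molecule ended, so which form was counted was not tested.

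Some H2A and H2B genes lie back to back with overlapping promoter windows. There were 10 such pairs, and in 7 both genes were tested. The log2 fold change was larger in the H2A gene in 6 of the 7. Hist1h2ae rose by 3.78 beside 1.08 for its partner Hist1h2bg, across a shared stretch of 279 bases. Hist1h2ap rose by 3.69, whereas its partner Hist1h2br had 1.22 (adjusted p 0.279). Hist1h2ai, at 2.90, was the H2A gene below its partner, Hist1h2bl, at 3.30. Several of these genes share sequence with copies elsewhere, and the difference within a pair was not tested.

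The Mki67-positive cells were then divided by 20 S phase genes and 20 G2/M genes. Histones are made in S phase, and the S-leaning cells had the lower histone level. The 2 lists follow Mki67 unequally, with median log2 fold changes of 2.73 for the S phase and 6.22 for the G2/M genes. A lead of S phase UMIs can thus rest on RNA that Mki67-negative cells also hold, so it was not taken to place a cell in S phase. Whether histone RNA was lower in S phase than in G2/M was not tested. Cells with more UMIs of the S phase list (66 control, 88 Ang II and 384 B6.SLE123) had 3947, 1541 and 4318 histone CPM, and cells with more of the G2/M list (54, 43 and 265) had 7774, 4462 and 7042 CPM. Of 35 members tested, 11 were lower in the S-leaning cells and 0 higher by edgeR with the library as a block, beside 2.13% of 5543 genes called lower. At an unadjusted p under 0.05 there were 27 members, and the members' median was −0.86, beside 0.00 for all genes. By DESeq2 8 members were lower and 0 higher, beside 110 of 5543 genes called in either direction. Without the replicate block (library) 0 members passed, beside 20 of 5543 genes, and 17 members had an unadjusted p under 0.05.

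The 11 were the H2A genes Hist1h2ae, Hist1h2ap, Hist1h2ao, Hist1h2ab, Hist1h2ai, Hist1h2af and Hist2h2ac, the linker genes Hist1h1e and Hist1h1c, Hist1h4d and Hist1h3c. Hist1h2ae was at 590, 164 and 793 CPM in the S-leaning cells and at 1650, 523 and 1490 CPM in the G2/M-leaning cells (log2 fold change −1.34, adjusted p 0.00306). Hist1h1e was at 307, 179 and 351 CPM against 549, 322 and 639 CPM (−0.86, adjusted p 0.00774). In both genes each library went the same way. The G2/M-leaning cells were also the deeper in the control library, with a median of 7148.5 UMIs against 5001, and in Ang II, at 6709 against 5683.5, and in B6.SLE123 the depths were close, at 5564 against 5513.5. The part of depth in the contrast was not tested. Between 61 and 224 cells per library lay within 2 UMIs of the dividing line, and 29, 23 and 106 were tied and left out.

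A division into 4 kinds of B cell-gated cell, by 3 or more UMIs of either list, was made across all cells, whatever their Mki67. With neither list the summed histone level was 675, 856 and 674 CPM. With the S phase list alone (672, 1310 and 866 cells) it was 595, 771 and 533 CPM, below the cells with neither in every library. Only 17, 29 and 86 of these cells carried a Mki67 UMI, against 69, 48 and 441 of those with both lists. Most of them thus held no Mki67 UMI, and the group was not taken to stand for S phase. Whether these cells were dividing was not tested. Their medians were 2767.5, 3925 and 3406.5 UMIs, against 1739, 2653 and 1806 with neither list. With the G2/M list alone (26, 32 and 93 cells) the summed histone level was 1415, 844 and 1006 CPM. With both lists (85, 69 and 513 cells) it reached 6968, 4087 and 6215 CPM, and these cells were the deepest, with medians of 7695, 7291 and 6664 UMIs. Depth is in part set by the rule, since a deeper cell passes 3 UMIs of both lists more easily, and its part in the level was not tested.

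**Figure D2:**
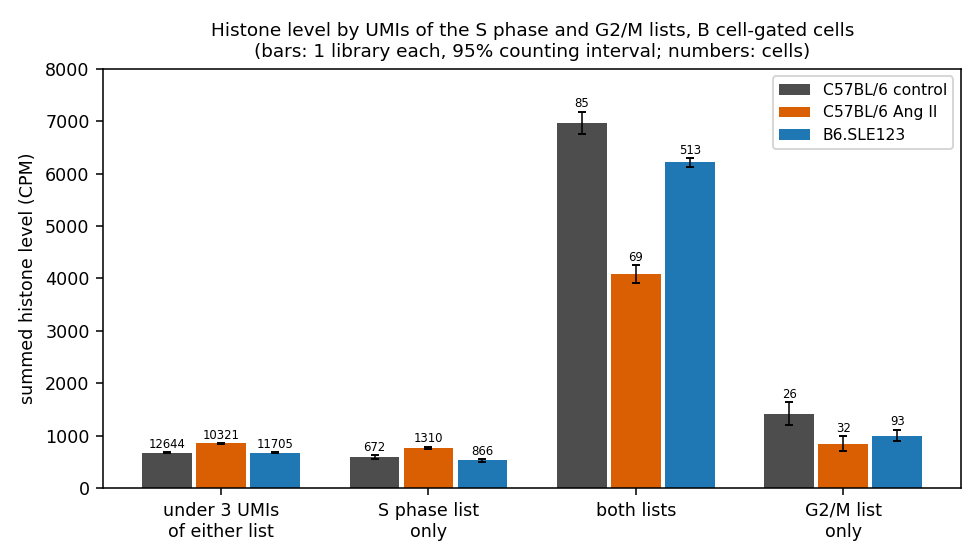
Summed level of the 67 histone genes in CPM (y axis) in B cell-gated cells by UMIs of the S phase and G2/M lists (x axis), 1 bar per library with a 95% exact Poisson interval for counting error and the number of cells above it. Cells with 3 or more UMIs of both lists stood at 4087 to 6968 CPM, and cells with the S phase list alone at 533 to 771 CPM.

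Hist1h1b and Hist1h2ae were highest in the cells with both lists, and Hist1h2bc was not. Hist1h1b was at 11.4, 13 and 23.2 CPM with neither list, 15.7, 15.2 and 22.7 CPM with the S phase list alone and 621, 312 and 775 CPM with both. Hist1h2ae was at 43.2, 43.6 and 52.5 CPM with neither, 41.0, 41.2 and 46.0 CPM with the S phase list alone and 1340, 481 and 1240 CPM with both. Hist1h2bc stayed between 39.8 and 92.9 CPM in these 3 kinds of cell. In Hist1h1b and Hist1h2ae the cells with the S phase list alone stood near those with neither, and the cells with both lists stood far above them in every library.

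Genes that serve the members moved in part. Slbp, whose product binds the stem-loop, rose in the Mki67-positive cells by 1.73 on the log2 scale (adjusted p 0.000117), and was the one gene of its list that differed in the S-leaning cells, where it was higher (0.86, adjusted p 0.0133). Of the 12 genes of histone mRNA processing and transcription that were tested, 6 were higher, among them Npat, the activator of histone genes (0.94), and 0 lower. Of the 12 histone chaperones 11 were higher, with Asf1b at 4.13 and Chaf1a at 3.61. Of the 10 replacement histone genes outside the clusters 6 were higher. H2afz (H2A.Z) went from 276 to 2060 CPM in the control library (2.65 over the 3 libraries), H2afx (H2A.X) had 3.35 and the linker gene H1fx 6.46. The H3.3 genes H3f3a (−0.01) and H3f3b (0.29), which a cell uses whether it divides or not, were not called. In the S-leaning cells 5 of these 10 were lower and 0 higher.

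Markers of germinal centre B cells and of neutrophils were also measured in these cells. All 9 germinal centre B cell markers tested were higher there, with a median of 5.01. Without cells holding 2 or more of them 39 of 58 members were higher, beside 1110 of 11675 genes called in either direction. The 10 neutrophil markers summed to 87.6, 15100 and 631 CPM on the positive side and to 363, 331 and 719 CPM on the negative, so the Ang II library stood apart. Leaving out cells with 2 or more neutrophil markers left 148, 122 and 706 positive cells, at 5465, 2671 and 5173 histone CPM. There 46 of 59 members were higher, beside 3380 of 11785 genes called in either direction. Without the upper limit on genes as well, the cells with fewer than 2 neutrophil markers stood at 5403, 6335 and 5643 CPM. The part of doublets and of free RNA in these markers was not tested.

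In neutrophil-gated cells, which were scarce (22, 70 and 105 with Mki67), the summed level was 7821, 9891 and 7869 CPM with Mki67 and 1145, 1458 and 1244 CPM without. The positive cells were far the deeper, with medians of 10788, 13728 and 8386 UMIs against 1144, 1935.5 and 1193.5, and the part of depth was not tested. Of 5993 genes tested 26.5% were higher and 27.0% lower, and of 49 members 42 were higher and 2 lower. Hist1h2af rose by 7.33 and Hist1h1b by 5.22 on the log2 scale. The 2 that fell were the H2B gene Hist1h2bc (−1.21, adjusted p 6.45e-08) and the H2A gene Hist2h2aa1 (−1.16, adjusted p 4.14e-05). Hist1h2bc stood at 365, 230 and 208 CPM in the Mki67-negative neutrophil-gated cells, where it was the highest member in the control library, and at 129, 125 and 70.4 CPM in the positive. The Mki67-negative values, 365, 230 and 208 CPM, are above its 62.9 to 71.2 CPM in Mki67-negative B cell-gated cells. Hist1h4i, called in B cell-gated cells, had 0.06 here (adjusted p 0.827).

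**Figure D3:**
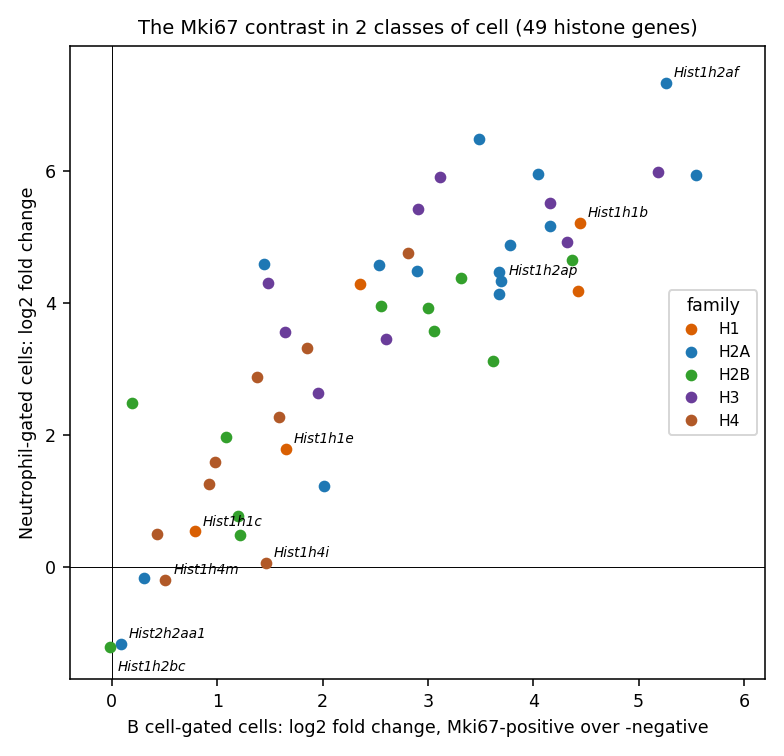
Log2 fold change, Mki67-positive over Mki67-negative, of the 49 histone genes tested in both classes, in B cell-gated (x axis) and neutrophil-gated (y axis) cells, coloured by family. In 38 of the 49 the neutrophil-gated value was the larger. That share was not counted over all genes and is not read as a trait of the members. Hist1h2bc and Hist2h2aa1 lie at −1.21 and −1.16 on the y axis while near 0 on the x axis.

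Among Mki67-negative cells of other classes the summed level was 844, 1146 and 1017 CPM in NK cell-gated, 811, 977 and 868 in monocyte-gated and 1021, 864 and 732 in conventional dendritic cell-gated cells. Classes of few cells were higher: basophil and mast cell-gated cells with no Mki67 UMI (34, 20 and 23 cells) were at 2363, 4364 and 1825 CPM, and platelet and megakaryocyte-gated ones (7, 9 and 16 cells) at 4381, 2787 and 3246 CPM. In the 309 T cell-gated cells of the Ang II library the level was 494 CPM. The small erythroid-gated groups, 28 Ang II and 48 B6.SLE123 cells, stood at 10070 and 6150 CPM, and 17 and 26 of these cells carried Mki67. Those without stood at 2898 CPM (11 cells) and 3392 CPM (22 cells). Plasma cell-gated cells of B6.SLE123 had 2334 CPM in the 156 with Mki67 and 584 CPM in the 219 without. With immunoglobulin genes left out of the total, which they fill in large part in these cells, the values were 3883 and 1246 CPM, beside 688 CPM in the Mki67-negative B cell-gated cells. The part of free RNA in the levels of Mki67-negative cells was not tested.

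Between libraries there is no replicate, and each value compares 2 libraries, with an exact 95% interval for counting error only. Over all B cell-gated cells the summed histone level was 814 CPM in the control, 889 in the Ang II and 1276 in the B6.SLE123 library. The log2 ratio to control was 0.65 for B6.SLE123 (interval 0.626 to 0.673) and 0.13 for Ang II (0.103 to 0.152). Of 57 members with at least 50 UMIs over both libraries, 22 were at least 2-fold higher in B6.SLE123, beside 5.5% of 11483 genes, and 4 at least 2-fold lower, beside 1.79%. In Ang II 2 of 53 were at least 2-fold higher, beside 1.09% of 11442 genes, and 1 lower, beside 0.752%. Mki67 itself was at 25.7, 13.3 and 109 CPM in these cells.

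By hashtag the B6.SLE123 library did not overlap the others: its 6 hashtags ran from 1088 to 1529 CPM (median 1276), those of the control library from 720.0 to 931 (median 810) and those of the Ang II library from 819 to 1038 (median 867). Without the upper limit on genes the B6.SLE123 hashtags, 1174 to 1915 CPM, lay above those of the control (715.5 to 988.8) and overlapped those of Ang II (990.5 to 1214). In the Mki67-negative cells the picture changed. There the B6.SLE123 hashtags lay at 563 to 744 CPM (median 691), spanning the control's 604 to 713 (median 674.5), while the Ang II hashtags lay above every control hashtag at 741 to 1012 (median 838.5). Over the libraries the log2 ratio to control in these cells was 0 for B6.SLE123 and 0.33 for Ang II. Among Mki67-positive cells the Ang II hashtags ran from 844 to 2899 CPM, below all of those of the control library (3779 to 13550) and of B6.SLE123 (4368 to 6317). The 13550 belongs to a hashtag with 6 such cells. Without the upper limit on genes the 3 libraries overlapped, at 4669 to 8797 CPM in Ang II, 3782 to 11510 in the control and 4476 to 6706 in B6.SLE123.

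**Figure D4:**
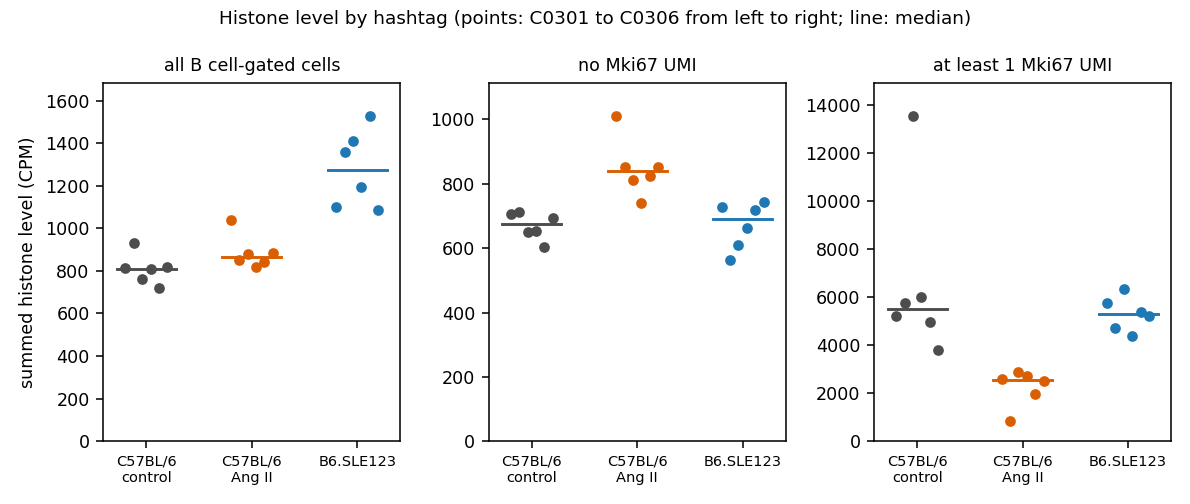
Summed level of the 67 histone genes in CPM (y axis) in B cell-gated cells of each of the 6 hashtags of each library, in all cells, in cells with no Mki67 UMI and in cells with at least 1. Lines are medians. B6.SLE123 is the highest over all cells (1088 to 1529 CPM) and spans the control range in cells with no Mki67 UMI (563 to 744 CPM).

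The members that stood highest in B6.SLE123 against control over all B cell-gated cells were among those that rose most with Mki67: Hist1h2ah (3.13 against 0.569 CPM, log2 ratio 2.46, interval 1.69 to 3.32), Hist1h3g (2.36), Hist1h1a (21.7 against 4.87 CPM, 2.16) and Hist1h1b (106 against 25.8 CPM, 2.04). Hist1h2ae was at 184 against 73.0 CPM. In the Mki67-positive cells alone 2 of 44 members were at least 2-fold higher in B6.SLE123, beside 4.18% of 7648 genes, and the median log2 ratio was 0.00. In the Mki67-negative cells 8 of 48 members were at least 2-fold higher, beside 3.68% of 11258 genes, and 4 lower, beside 1.71%. Those 8 were Hist1h3c (5.38 against 1.47 CPM), Hist1h2af, Hist1h2bn, Hist1h4n, Hist1h3b, Hist1h1a, Hist1h2bm and Hist1h1b. All 8 but Hist1h4n rose with Mki67 by the test above, and the share of dividing cells without a Mki67 UMI among them was not tested.

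Hist1h1b gives the pattern by hashtag. In Mki67-negative B cell-gated cells it ran from 9.80 to 14.2 CPM in the control (median 12.8), from 11 to 16.3 in the Ang II (median 13.4) and from 20.3 to 29.8 in the B6.SLE123 library (median 26.9). No B6.SLE123 hashtag overlapped a control one. Across the 48 members every B6.SLE123 hashtag was above every control hashtag in 9, beside 6.35% of 11242 genes, and below in 6, beside 10.2%. The 6 below are near the share of all genes and are not read as a trait of the members. The 6 share near copies for the most part: Hist2h2aa1 and Hist2h2aa2, Hist1h2ap and Hist1h2ao, Hist1h4m, and Hist3h2ba, which shares none. Hist3h2ba ran from 9.22 to 14.1 CPM in the control hashtags and from 1.60 to 8.30 CPM in those of B6.SLE123, whose log2 ratio over all B cell-gated cells was −1.23. Its neighbour Hist3h2a was at 1.72 against 3.77 CPM there.

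The H4 pair shown above differed most. Hist1h4m had 499 UMIs over all kept cells of the control library, 913 in Ang II and 4 in B6.SLE123. In Mki67-negative B cell-gated cells its hashtags ran from 9.73 to 15.5 CPM in the control, from 12.8 to 21.9 in the Ang II and from 0 to 0.228 in the B6.SLE123 library. The log2 ratio of B6.SLE123 to control over all B cell-gated cells was −7.15 (interval −9.43 to −5.59, 3 against 375 UMIs). Hist1h4n went the other way, at 8.48 to 11.3, 9.28 to 16.4 and 20.3 to 31.5 CPM, with 374, 625 and 1308 UMIs over all kept cells. The sum of the pair was 25.8, 33.8 and 30.4 CPM over all kept cells, and its hashtag ranges overlapped between the control (19.8 to 26.8) and B6.SLE123 (20.6 to 31.7). In NK cell-gated Mki67-negative cells Hist1h4m was likewise at 33.2, 33.1 and 0 CPM and Hist1h4n at 16.6, 23.5 and 53.2 CPM. Which of the 2 rows a read was given to cannot be followed in the counts, so the pair is uncertain as single genes.

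**Figure D5:**
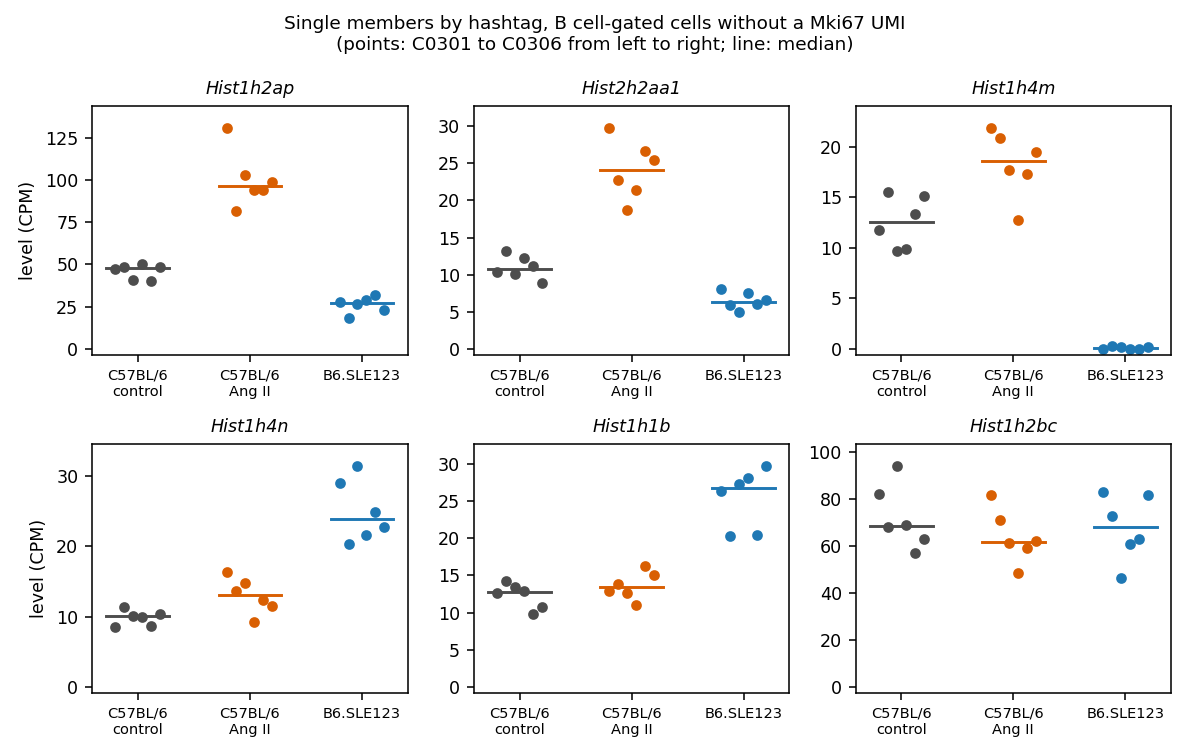
Level in CPM (y axis) of 6 single histone genes in B cell-gated cells with no Mki67 UMI, for each of the 6 hashtags of each library, with the median as a line. Hist1h4m lies between 0 and 0.228 CPM in B6.SLE123, where Hist1h4n is at its highest, Hist1h2ap and Hist2h2aa1 are highest in Ang II and lowest in B6.SLE123, and Hist1h2bc overlaps throughout.

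In the Ang II library the Mki67-negative B cell-gated cells had 3 of 53 members at least 2-fold above control, beside 1.02% of 11328 genes, and 1 lower, beside 0.459%. The 3 were Hist1h2br (2.61 against 0.733 CPM), Hist1h2ap (101 against 46.0 CPM, log2 ratio 1.13) and Hist2h2aa1 (24.4 against 11.2 CPM, 1.12), and the lower one was Hist1h3b (0.701 against 1.58 CPM). By hashtag Hist1h2ap ran from 40.0 to 50 CPM in the control (median 47.8), from 81.6 to 131 in the Ang II (median 96.5) and from 18.1 to 32.0 in the B6.SLE123 library (median 26.9). The 3 ranges do not overlap. Summed with its copy Hist1h2ao, the ranges were 51.4 to 63.8, 99.4 to 161 and 22.6 to 40.7 CPM, and they do not overlap either. Hist2h2aa1 ran from 8.87 to 13.2, 18.7 to 29.8 and 4.97 to 8.03 CPM. It shares 89.2% of its 50-base words with Hist2h2aa2. Summed with that copy, the ranges were 12.8 to 16.9, 23.7 to 37.4 and 6.21 to 9.64 CPM. Every Ang II hashtag was above every control hashtag in 8 of 52 members, beside 7.86% of 11309 genes, and below in 1, beside 4.8%.

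The order of Hist1h2ap was not particular to B cell-gated cells. Among Mki67-negative cells it was at 56.7, 130 and 29.7 CPM in NK cell-gated, 51.4, 137 and 38.9 CPM in monocyte-gated, 90.9, 150 and 34.3 CPM in conventional dendritic cell-gated and 55.2, 177 and 60.2 CPM in neutrophil-gated cells. Ang II was the highest library in each, and B6.SLE123 the lowest in all but the neutrophil-gated cells. The libraries also differed in depth, the Ang II library being the deepest, and the part of that in the order was not tested.

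Among Mki67-positive B cell-gated cells the Ang II library was low under the limit on genes, and not without it. Under the limit, of 26 members with at least 50 UMIs over both libraries 16 were at least 2-fold below control and 0 above. Of all 4646 genes 2.45% were lower and 114 genes higher by that measure. The median log2 ratio was −1.06, beside −0.02 for all genes. Without the limit 0 of 40 members were at least 2-fold below control, beside 0.587% of 6478 genes. At least 2-fold above were 3 members, beside 120 of the 6478 genes. The median was 0.05, beside 0.03 for all genes. Under the limit Hist1h2an (31.5 against 136 CPM), Hist1h3f (16.3 against 68.4 CPM), Hist1h3b (13 against 54.0 CPM) and Hist1h2ae (270 against 1030 CPM) were the lowest, and without it they were at 99.4 against 147, 36.6 against 61.7, 51.8 against 50.6 and 695 against 1010 CPM. Mki67 stood at 529 CPM in these cells against 867 in the control under the limit, and at 720 against 806 CPM without it. The neutrophil markers given above were high in the same cells, and without the cells that held 2 or more of them the summed level under the limit was 2671 against 5465 CPM. Over all B cell-gated cells the lowest ratios of Ang II to control were those of Hist1h3b (−1.63, interval −2.23 to −1.06), Hist1h3c (−0.87) and Hist1h2af (−0.60), and the highest were Hist1h2br (1.47), Hist2h2aa1 (1.11) and Hist2h2aa2 (0.75). That of Hist1h2af turned to 0.68 when the upper limit on genes per cell was lifted and to 0.12 in Mki67-negative cells.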

How the data were processed

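The authors deposited unnormalized UMI counts for every gene and hashtag by cell barcode, from Cell Ranger 6.0.0 according to the file headers. Depth is 33796208 to 45487504 gene UMIs per library in the kept cells, and intervals cover counting error only.

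The study's limits (more than 200 and fewer than 3500, read here as genes, with mitochondrial UMIs below 15%) chose the cells, and barcodes positive for several hashtags (1803 to 3664 per library) were removed, which served as the doublet filter. Cells were gated by at least 3 detected markers of a class. For the Mki67 and the S phase against G2/M contrasts, UMIs were summed per library and side (6 sums, with library as a block, since both sides come from the same library) and tested with edgeR 4.0.16 (glmQLFit, glmQLFTest, TMM, filterByExpr) in R 4.3.3, with Benjamini-Hochberg adjustment over all genes tested. Genes that chose the sides were left out. On simulated counts for the Mki67 contrast, 31 of 100 genes changed 2-fold and 81 of 97 changed 4-fold were called, with 5 false calls among 11681 genes. These counts had a fixed spread, not estimated from the data, and the same fold in every library. The rates therefore need not hold for the real contrast. DESeq2 1.42.0 was an alternative. Libraries were compared by CPM without a test. Transcript and promoter sequences were read from GENCODE vM21 and RefSeq tables. One list symbol, Symplk, matched no gene row.

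Named were the 12 highest members, the 10 largest changes of each direction with Mki67, the 3 highest and 3 lowest library ratios, and members no higher with Mki67 in every library. Other members are named where a count or comparison turns on them, chosen after their values were seen. The members, lists and tests were chosen with earlier results of these data known, and p-values measure the spread between 3 libraries of different groups.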

Additional observations from a re-analysis of the deposited data

How the results depend on the processing

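Counts of all genes called in either direction are given beside those of the members. In the Mki67 contrast of B cell-gated cells, 44 of 59 members were called, beside 3062 of 11917 genes. With the limits read as UMIs, where fewer cells remain, 24 of 49 were called, beside 985 of 10930 genes. Leaving out 1 library in turn gave 32 members (without B6.SLE123, beside 1519 of 11842 genes) to 50 (without Ang II, beside 3193 of 12002 genes). No replicate block (library) gave 45, beside 2138 of 11917 genes. In the S phase against G2/M contrast, 11 members were called lower, beside 161 of 5543 genes, and 23 with no filter on low counts, beside 448 of 14636. With the limits read as UMIs 3 were lower (4 members tested), beside 24 of 794 genes, and with no replicate block (library) 0, beside 20 of 5543. Leaving out 1 library in turn gave 9 (without B6.SLE123, beside 99 of 5130 genes) to 10. Hist1h2bc, near 0 (−0.02) in the Mki67 contrast, took the other sign at 0.01 with DESeq2 or without cells with neutrophil markers, 0.04 with barcodes of several hashtags kept, 0.17 with at least 2 Mki67 UMIs, 0.12 in cells limited in depth, 0.42 over all kept cells and, leaving out 1 library in turn, −0.05 to 0.03.

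The summed log2 ratio of B6.SLE123 to control in B cell-gated cells, 0.65, became 0.19 with the limits read as UMIs, 0.83 with no upper limit on genes, 0.69 with TMM factors, 0 in Mki67-negative cells and 0.56 without the highest member (0.60 to 0.70 leaving out 1 hashtag). Over all kept cells, 0.68, it became 0.27, 0.88, 0.75, 0.03 and 0.61 in the same order, and 0.73 without immunoglobulin genes in the total (0.54 to 0.75). For Ang II in B cell-gated cells, 0.13 became 0.41, 0.33, 0.08 and 0.33 in the first 4 of these, and 0.16 with barcodes of several hashtags kept (0.08 to 0.18). Over all kept cells, 0.31 became 0.43, 0.57 and 0.28 in the first 3 and 0.19 without the highest member (0.18 to 0.38). The cause was not tested. In Mki67-positive B cell-gated cells the summed level of the Ang II library, 2440 CPM, became 5667 CPM with no upper limit on genes, and was then no longer below the control (5351 CPM).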
